A study of Mus musculus with 18 samples.

Results

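Of the 18 arrays of whole mouse lung, 8 carried the transcripts of a keratinized squamous epithelium together with high levels of those of striated muscle. The other 10 lacked the squamous transcripts, but several skeletal muscle transcripts were also high in A/J PBS array 3, which is among them. The arrays were divided by the value of Krt4, the gene of keratin 4, a keratin made in the upper layers of stratified squamous epithelium that lines wet surfaces. The probe set with the highest mean was read on the log2 scale made by RMA (robust multi-array average), and an array belonged to the first set where the value was above 8. The division used a measured value of the same arrays, so the difference between both sets is given as a description, with no test.

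The mice were males of 16 weeks, 9 from A/J and 9 from C57BL/6, in 6 groups of 3 biological replicates, each taken here as 1 mouse. Every mouse, the controls included, had been sensitized to the egg-white allergen ovalbumin with 3 weekly intraperitoneal injections of 100 µg in alum. Aerosol challenges of 30 min followed on 3 days, the first of them 7 days after the last injection. The PBS groups of both strains inhaled PBS, and the ovalbumin groups inhaled 1% ovalbumin. The resiquimod groups inhaled 1% ovalbumin and were injected intraperitoneally with 100 µg of resiquimod, an agonist of Toll-like receptor 7, starting 24 h before the first challenge. There was no group with resiquimod and without ovalbumin.

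Stratified squamous epithelium renews itself from a basal layer, which makes keratins 5 and 14, and its upper layers change to other keratin pairs, such as keratins 4 and 13 in mucosa of the mouth, oesophagus and forestomach. In the mouse these surfaces are keratinized: loricrin, small proline-rich proteins and late cornified envelope proteins are crosslinked by transglutaminases beneath the membrane of the dying cells. The wall of the mouse oesophagus also differs from that of most hollow organs in that its muscle is striated. Airways and alveoli are lined by other epithelia, and a lung taken whole is removed close to the trachea, oesophagus, heart, thymus and fat of the mediastinum. Lung as a bulk sample cannot show whether fewer cells of a type or less RNA per cell lie behind a lower value.

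The sequences before the start sites of the genes that set the arrays apart are given first, 3 from the squamous programme and 3 from striated muscle. They are RefSeq windows of build GRCm38.p6, read 5′ to 3′ on the gene's strand, and cover the 250 bases before the annotated start. Krt13 has 2 such windows, of which the first listed is shown. Capitals mark TATAAA on either strand, TGANTCA (the form bound by AP-1 factors), CANNTG (the E-box, bound by MyoD-type factors among others) and the CArG box (bound by serum response factor). The last 3 read alike on both strands.

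Krt13, chr11:100121567-100121816, minus strand: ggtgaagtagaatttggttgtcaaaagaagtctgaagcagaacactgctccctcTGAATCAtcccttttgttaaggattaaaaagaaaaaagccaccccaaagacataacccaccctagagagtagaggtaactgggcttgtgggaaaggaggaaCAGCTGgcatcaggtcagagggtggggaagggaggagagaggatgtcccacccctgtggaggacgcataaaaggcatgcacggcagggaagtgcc
Lor, chr3:92083143-92083392, minus strand: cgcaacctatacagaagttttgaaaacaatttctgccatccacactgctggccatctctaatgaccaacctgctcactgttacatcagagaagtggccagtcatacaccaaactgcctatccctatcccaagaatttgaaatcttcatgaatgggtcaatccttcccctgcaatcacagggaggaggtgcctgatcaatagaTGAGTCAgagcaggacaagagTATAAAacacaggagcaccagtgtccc
Krtdap, chr7:30787655-30787904, plus strand: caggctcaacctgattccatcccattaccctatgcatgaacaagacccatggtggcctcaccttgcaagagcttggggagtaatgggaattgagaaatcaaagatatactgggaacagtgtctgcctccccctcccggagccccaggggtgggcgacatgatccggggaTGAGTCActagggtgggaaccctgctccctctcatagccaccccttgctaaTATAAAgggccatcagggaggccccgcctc
Acta1, chr8:123894776-123895025, minus strand: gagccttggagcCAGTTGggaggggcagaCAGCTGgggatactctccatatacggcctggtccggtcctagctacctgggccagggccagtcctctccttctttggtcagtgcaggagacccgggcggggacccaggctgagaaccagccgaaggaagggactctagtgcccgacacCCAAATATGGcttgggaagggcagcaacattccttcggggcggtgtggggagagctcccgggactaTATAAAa
Ckm, chr7:19410844-19411093, plus strand: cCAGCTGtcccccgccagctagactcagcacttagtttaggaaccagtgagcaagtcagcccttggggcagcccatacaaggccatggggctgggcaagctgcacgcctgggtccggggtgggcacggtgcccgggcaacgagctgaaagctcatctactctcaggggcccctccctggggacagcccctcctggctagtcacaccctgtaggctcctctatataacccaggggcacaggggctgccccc
Myh1, chr11:67199852-67200101, plus strand: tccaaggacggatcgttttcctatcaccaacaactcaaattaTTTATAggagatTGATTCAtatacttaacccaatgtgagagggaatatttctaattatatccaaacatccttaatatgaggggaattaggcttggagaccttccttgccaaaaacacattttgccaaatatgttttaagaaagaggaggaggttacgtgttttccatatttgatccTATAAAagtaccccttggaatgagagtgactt

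The Lor window held TATAAA 27 bases and TGAGTCA 48 bases before the start, and the Krtdap window held them 30 and 81 bases before it. Krt13 held TGAATCA 196 bases before the start, and Acta1 a CArG box 73 bases before it. Matches of different motifs did not overlap in these 6 windows. TGANTCA was found in 12 of the 36 squamous list genes that were at least 2-fold higher and have a window (33.3%), in 1 of 20 such skeletal muscle list genes (5.0%) and in 6.75% of all 32851 windows of that length. The CArG box was found in 0 of the 36, in 2 of the 20 and in 1.47% of all windows. TATAAA was found in 12 of the 36, 5 of the 20 and 12.4% of all windows, and CANNTG in 26, 16 and 66.2%. A match is a description and not a site of binding, and neighbouring genes of a family share sequence.

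Krt4 lay between 10.51 and 12.32 in the 8 arrays above 8, with a median of 11.61, and between 3.82 and 5.48 in the 10 arrays below, with a median of 4.01. Nothing lay between the A/J resiquimod array 1 at 10.51, the value just inside, and the A/J resiquimod array 2 at 5.48, the value just outside. The second Krt4 probe set divided the arrays in the same way. Each of the 6 groups held arrays of both sets. Of 3 arrays a group, those above 8 were 1 in A/J PBS (array 1), 2 in A/J ovalbumin (arrays 1 and 3), 1 in A/J resiquimod (array 1), 2 in C57BL/6 PBS (arrays 1 and 3), 1 in C57BL/6 ovalbumin (array 1) and 1 in C57BL/6 resiquimod (array 2). That is 4 of 9 arrays in either strain, and 3 of 6 PBS, 3 of 6 ovalbumin and 2 of 6 resiquimod arrays.

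Differences between both sets are those of arrays above 8 minus arrays below 8, from a linear model with the 6 groups as covariate, and are given on the log2 scale with the standard error (SE). Of 18193 genes, 149 (0.819%) were at least 2-fold higher in the arrays above 8, which is a difference of at least 1, and 0 were at least 2-fold lower. The lowest difference of any gene was -0.77, and the median of all genes was -0.01. Among the 149 were 66 at least 4-fold and 26 at least 16-fold higher, and 137 were higher in all 6 groups. The share of all genes for which every array above 8 exceeded every array below was 0.885% (161 genes), and the reverse held for 0 genes. Since the arrays were chosen on a squamous gene, these counts describe what moved with Krt4 and support nothing further.

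**Figure D1:**
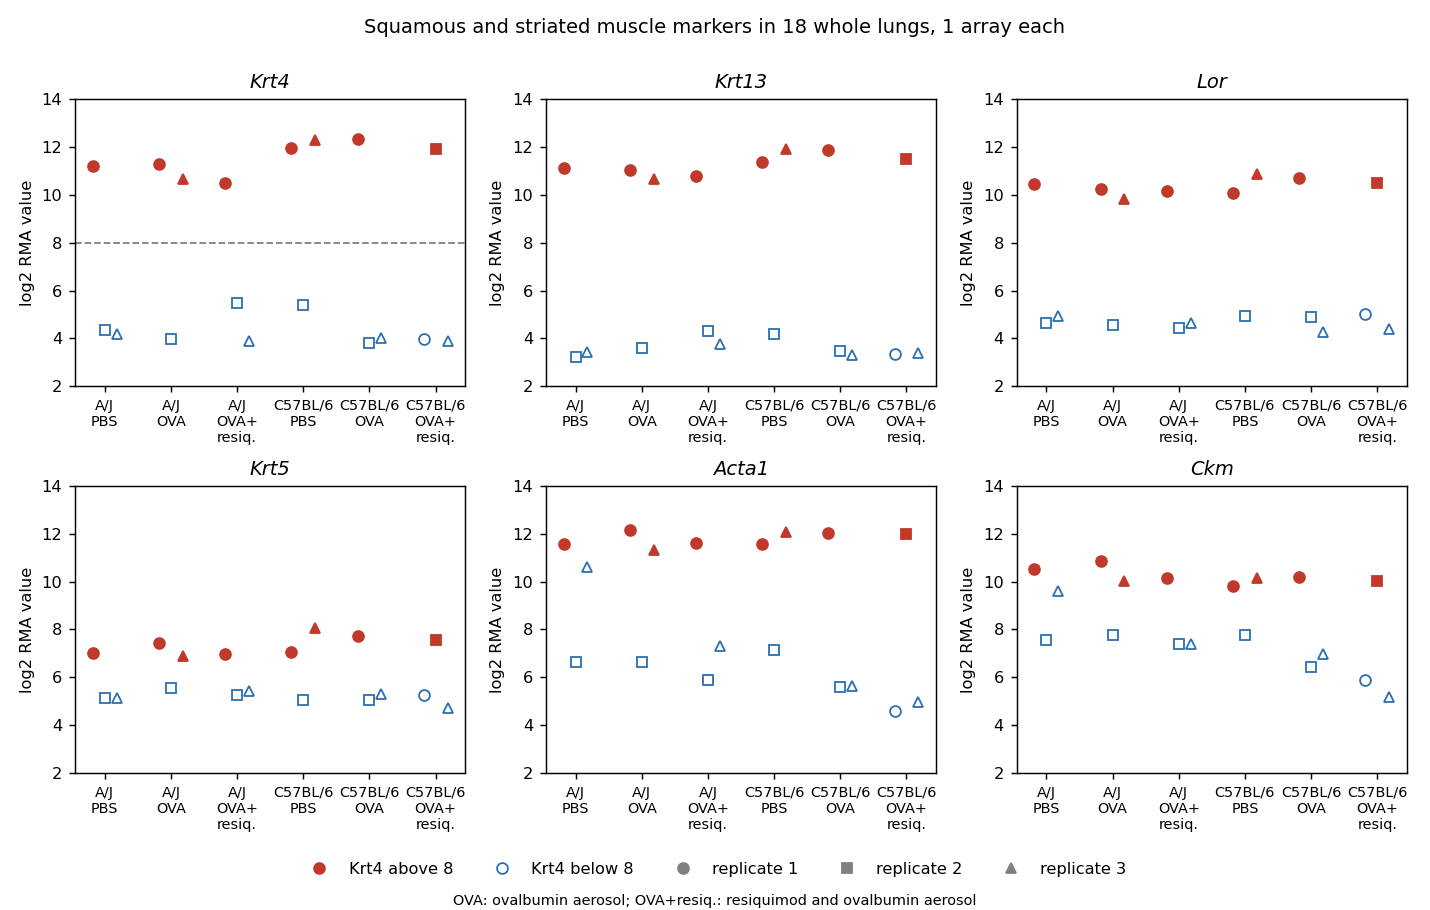
Log2 RMA values of Krt4, Krt13, Lor, Krt5, Acta1 and Ckm in each of the 18 arrays, by group, with arrays of Krt4 above 8 as filled red and those below 8 as open blue symbols, and the threshold of 8 as a dashed line. Krt4, Krt13 and Lor leave a wide gap between both sets, while Acta1 and Ckm of A/J PBS array 3, an array below 8, come close to the arrays above.

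Among the listed keratins, Krt4, Krt13, Krt78 and those of basal cells were higher, and the others differed little. Krt13, the partner of keratin 4, lay between 10.68 and 11.93 (median 11.25) in the arrays above 8 and between 3.21 and 4.30 (median 3.46) in those below, a difference of 7.66 ± 0.17. Krt5, a keratin of basal cells, lay between 6.88 and 8.05 (median 7.24) against 4.72 to 5.54 (median 5.19), a difference of 2.13 ± 0.17. Its sets did not overlap, nor did those of the basal keratins Krt14 (1.72 ± 0.17) and Krt15 (1.94 ± 0.26). Of 15 keratins of stratified epithelium measured, 6 were at least 2-fold higher, and the median difference was 0.12. The others differed by 0.25 or less. Among them were Krt10 (0.25) and Krt1 (0.06), which form the pair of epidermis. Krt6a, Krt16 and Krt17, which are made in activated or wounded epithelium, differed by 0.00, -0.02 and 0.01. The rest were Krt6b, Krt24, Krt76 and Krt84, each higher in some groups and lower in others. Krt1, Krt16 and Krt17 had medians of 3.31, 2.96 and 2.95 in the arrays above 8, all below 3.33, the 25th percentile of all values, where arrays give little room to see a difference.

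Genes of the cornified envelope were among the highest. Of 30 measured, 19 were at least 2-fold higher, with a median difference of 1.88, and the same number had sets that did not overlap (63.3%; 0.885% of all genes). Lor, which encodes loricrin, the main envelope protein, lay between 9.83 and 10.86 (median 10.35) against 4.25 to 5.04 (median 4.66), a difference of 5.70 ± 0.14. Krtdap, a secreted product of differentiating keratinocytes, lay between 9.97 and 10.97 (median 10.44) against 2.97 to 3.95 (median 3.26), a difference of 7.14 ± 0.14. These arrays thus ranged over about 1 log2 unit among themselves and lay far above the others. Crct1 differed by 6.07 ± 0.17, Rptn (repetin) by 5.84 ± 0.14, Lce3a by 5.66 ± 0.19 and Sprr3 by 5.16 ± 0.20, and the transglutaminases that crosslink such proteins by 1.04 ± 0.08 (Tgm3) and 0.90 ± 0.15 (Tgm1). Ivl (involucrin), an envelope precursor, differed by 0.04 and Flg (filaggrin), which packs keratin in epidermis, by 0.54 with a highest value of 3.95.

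Several of these values, and some of those given further on, rest on the choice of probe set or on genes that resemble each other. The 3 Krt13 probe sets differed by 7.66, 3.94 and 3.25, and the 3 Lor probe sets by 7.85, 5.70 and 0.27. For Rptn only the probe set with the highest mean differed (5.84), and the others gave 0.01 and -0.09. A second probe set gave 0.44 for Serpinb12, 0.15 for Ckm, -0.14 for Mb and -0.02 for Dcn, and the 3 Myh1 probe sets ranged from 0.11 to 6.05. The Lce1, Lce3 and Sprr genes are families of similar sequence, and signal of 1 member may be read by the probes of another, so values of single members are uncertain. A run of the genome from Lor to Rptn, in which neighbours lie within 500000 bases of each other, held 20 of the 149 genes among 35 measured. Sprr2d, Sprr2h, Sprr2i and Ivl lie in that run and were not among the 20.

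Junction proteins and protease inhibitors followed. Of 12 genes of desmosomes and gap junctions of such epithelium, 5 were at least 2-fold higher. Sets that did not overlap were found for 6 of the 12, against 0.885% of all genes. Pkp1 (plakophilin 1, a desmosome plaque protein) differed by 2.23 ± 0.12, Gjb2 (connexin 26) by 1.58 ± 0.18 and Perp by 1.5 ± 0.10. Dsp (desmoplakin) and Jup (plakoglobin), which other epithelia and heart muscle use too, differed by 0.74 ± 0.09 and -0.04 ± 0.06. Of 42 proteases, inhibitors, lipid enzymes and secreted products matched by symbol, 18 were at least 2-fold higher, with a median difference of 0.54. They were led by the serine protease inhibitor Serpinb12 (5.95 ± 0.12), the antimicrobial peptide Defb4 (4.72 ± 0.26), Calm4 (4.32 ± 0.18), Serpinb3a (3.40 ± 0.12) and the galectin Lgals7 (2.81 ± 0.14). Serpinb5, Serpinb12, Serpinb3a, Serpinb11 and Serpinb2 were 5 of the 6 measured genes of 1 cluster.

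Transcription factors of squamous epithelium differed by less than 2-fold, mostly upwards. Of 15 measured, 3 had sets that did not overlap, against 0.885% of all genes. Of the same 15, 0 were at least 2-fold higher, and the median difference was 0.18. The highest were Grhl3, which drives barrier genes (0.94 ± 0.11), Pitx1 (0.71 ± 0.10) and Trp63, the regulator of basal cells (0.70 ± 0.06). Trp63 lay between 4.29 and 4.68 against 3.56 to 3.91, both below the median of all values on the arrays, 4.79. Klf4 (0.02) and Sox2 (0.06), which the lung's own cells express, were at 10.06 against 10.01 and at 7.86 against 7.83 in the medians of both sets.

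**Figure D2:**
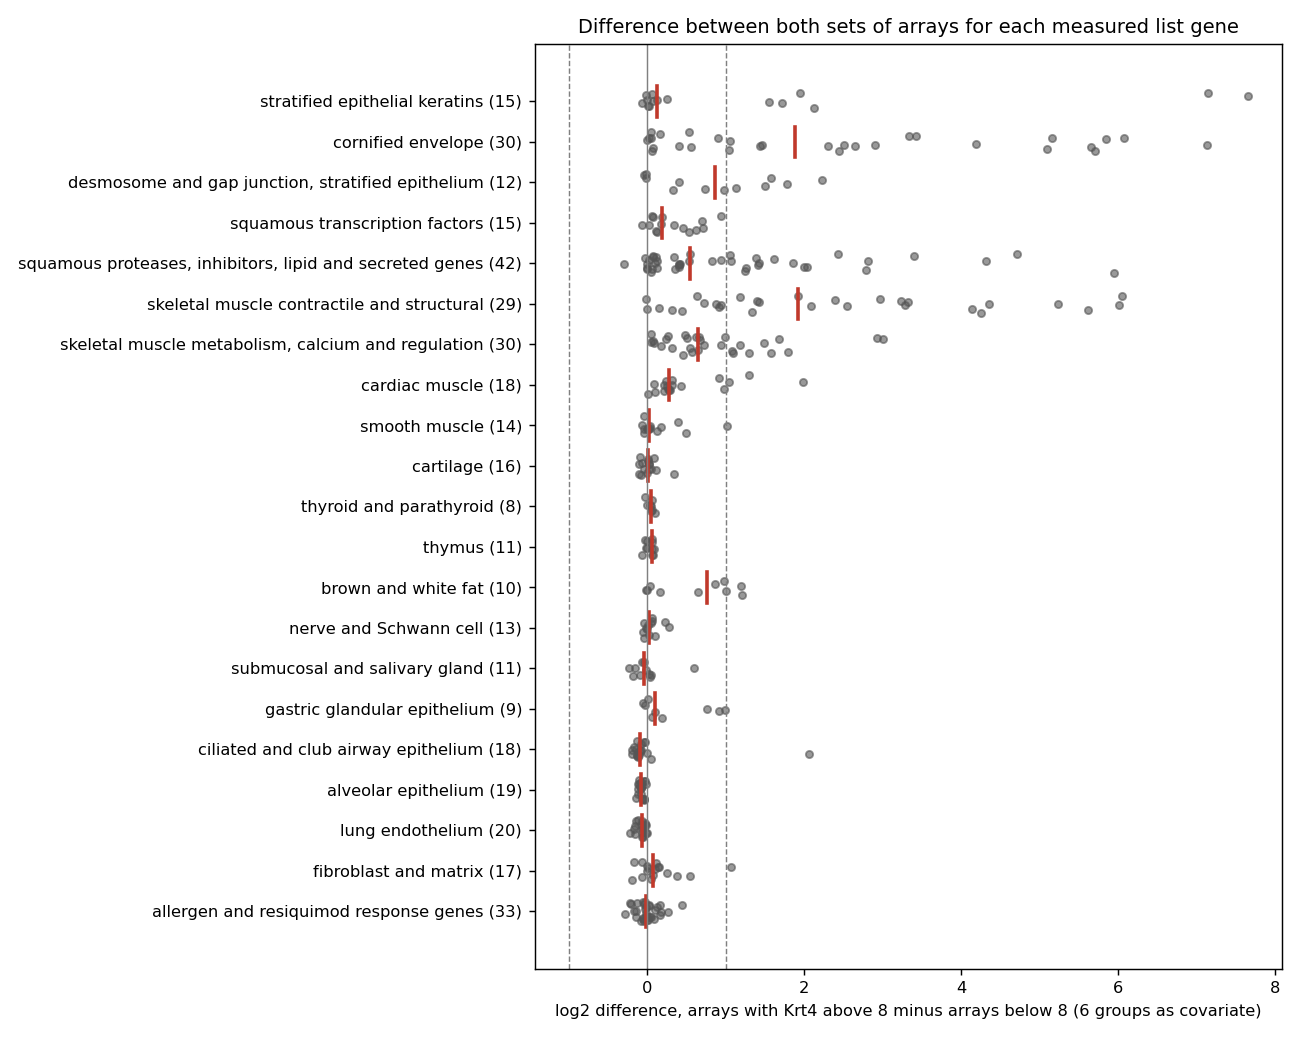
Log2 difference, arrays above 8 minus arrays below 8, of each measured gene of 21 lists (1 point a gene, red bar the list median, number measured in brackets), with dashed lines at 2-fold. The squamous and skeletal muscle lists reach to the right, up to 7.66, whereas all 19 alveolar and all 20 endothelial genes lie just left of 0.

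Striated muscle was the other side of the programme, led by genes of fast fibres. Of 29 contractile and structural genes of skeletal muscle, 19 were at least 2-fold higher, with a median difference of 1.92. Myh1 (fast myosin heavy chain IIx) differed by 6.05 ± 0.82, Myh8 (perinatal myosin heavy chain) by 6.01 ± 0.10, Tnnc2 (fast troponin C) by 5.61 ± 0.62 and Acta1 (skeletal alpha-actin) by 5.23 ± 0.53. Mylpf (fast regulatory light chain) differed by 4.36 ± 0.46. The slow troponins Tnnt1 and Tnni1 differed by 0.45 and 0.31. Of 30 genes of muscle metabolism, calcium handling and regulation, 10 were at least 2-fold higher and 30 were above 0, with a median of 0.65. Atp2a1, the calcium pump of fast fibres, differed by 3.00 ± 0.42, Ckm (muscle creatine kinase) by 2.93 ± 0.31 and Mb (myoglobin) by 1.79 ± 0.34, and Myod1, the regulator of the muscle lineage, by 0.05.

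The muscle genes varied far more within the arrays below 8 than the keratins did. Acta1 lay between 11.31 and 12.14 (median 11.81) in the arrays above 8 and between 4.57 and 10.63 (median 6.25) in those below. Ckm lay between 9.82 and 10.84 (median 10.15) against 5.19 to 9.60 (median 7.38). Both sets stayed apart, but 1 array, A/J PBS 3, came close with 10.63 for Acta1 and 9.60 for Ckm, while its Krt13 was 3.43 and its Lor 4.93. The same array read 9.22 for Myh1, 8.90 for Tnnc2 and 8.0 for Mylpf, and the next highest array below 8 read 6.70, 4.95 and 5.18. These 5 muscle genes were thus high in A/J PBS 3 as well as in the 8 arrays with squamous transcripts. Other muscle genes did not divide the arrays in this way. Mb, for example, reached 10.41 among the arrays below 8, against 9.85 to 10.98 in those above.

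A myosin heavy chain gene separated A/J PBS 3 from the arrays above 8. Myh8 lay between 8.45 and 9.46 (median 8.93) in the 8 arrays above 8 and between 2.77 and 3.33 (median 3.01) in the 10 below, and A/J PBS 3 read 2.99. Myh8 thus followed the keratins array by array, while Myh1 did not. Myh2 (fast myosin heavy chain IIa) was 7.10 in A/J PBS 3 and between 2.85 and 7.61 in the arrays above 8, and differed between the sets by 0.94 ± 0.72. The myosin heavy chain genes are close copies, so the values of single members are uncertain. Without A/J PBS 3, a setting chosen after its values were seen, 32 of the 59 skeletal muscle genes were at least 2-fold higher in place of 29. Sets that did not overlap were then found for 25 of them in place of 13. Over all genes the latter share was 1.02% in place of 0.885%, and 156 in place of 149 genes were at least 2-fold higher. Squamous list genes at least 2-fold higher were 49 of 114 without A/J PBS 3 and 48 with it.

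Other tissues of the mediastinum were read in the same way. Of 18 cardiac genes 3 were at least 2-fold higher, with a median of 0.28: Myl3 (1.99 ± 0.13), Myl2 (1.30 ± 0.50) and Nppa (1.05 ± 0.49). All 18 were above 0, against 7896 of 18193 over all genes, and 4 of the 18 were higher in each of the 6 groups. Myl3 and Myl2 are also light chains of slow skeletal fibres. Myl7, the atrial light chain, was 11.35 in the median of the arrays above 8 and 10.80 in that of the arrays below, so cardiac transcripts were high in both sets. Nppa, the atrial natriuretic peptide gene, was 10.06 in A/J PBS 3 and 10.12 in C57BL/6 PBS 2, both below 8, close to the highest value of the arrays above 8, which lay between 7.43 and 10.14.

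The stomach genes Gkn1 and Gkn2 rested on a single array, and fat genes did so only in part. Of 10 fat genes, 3 were at least 2-fold higher (Ucp1 1.21 ± 0.50, Adipoq 1.19 ± 0.40, Car3 1.00 ± 0.34). The number was 0 without C57BL/6 ovalbumin array 1, in which Ucp1, the brown fat uncoupling protein, was 9.45. Adipoq and Car3 then still differed by 0.98 and 0.86, and Ucp1 by 0.58. The median of the fat list was 0.50 without that array and 0.76 with it. Ucp1 was 8.41 in A/J PBS 3 and at most 7.43 in all other arrays. Of 9 genes of stomach glands 0 were at least 2-fold higher. Gkn2 and Gkn1, secreted by surface cells of the stomach, were 10.69 and 8.65 in A/J resiquimod array 1 and at most 4.71 and 3.63 in the other 17 arrays.

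Lists of smooth muscle, cartilage, thyroid, thymus, nerve and submucosal gland had medians of 0.02, 0.01, 0.05, 0.06, 0.03 and -0.04, close to that of all genes. Of their 14, 16, 8, 11, 13 and 11 measured genes, only Hspb6, a small heat shock protein of all muscle types, was at least 2-fold higher (1.01 ± 0.16). The smooth muscle genes Acta2, Tagln and Myh11 differed by 0.01, -0.04 and -0.01, and Actg2 by 0.18 ± 0.07. Des (desmin) of the same list was 0.40 ± 0.07 higher, by 0.17 to 0.85 in the groups, while its other probe set gave -0.01. The tissue from which the squamous and skeletal muscle transcripts came was not tested.

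**Figure D3:**
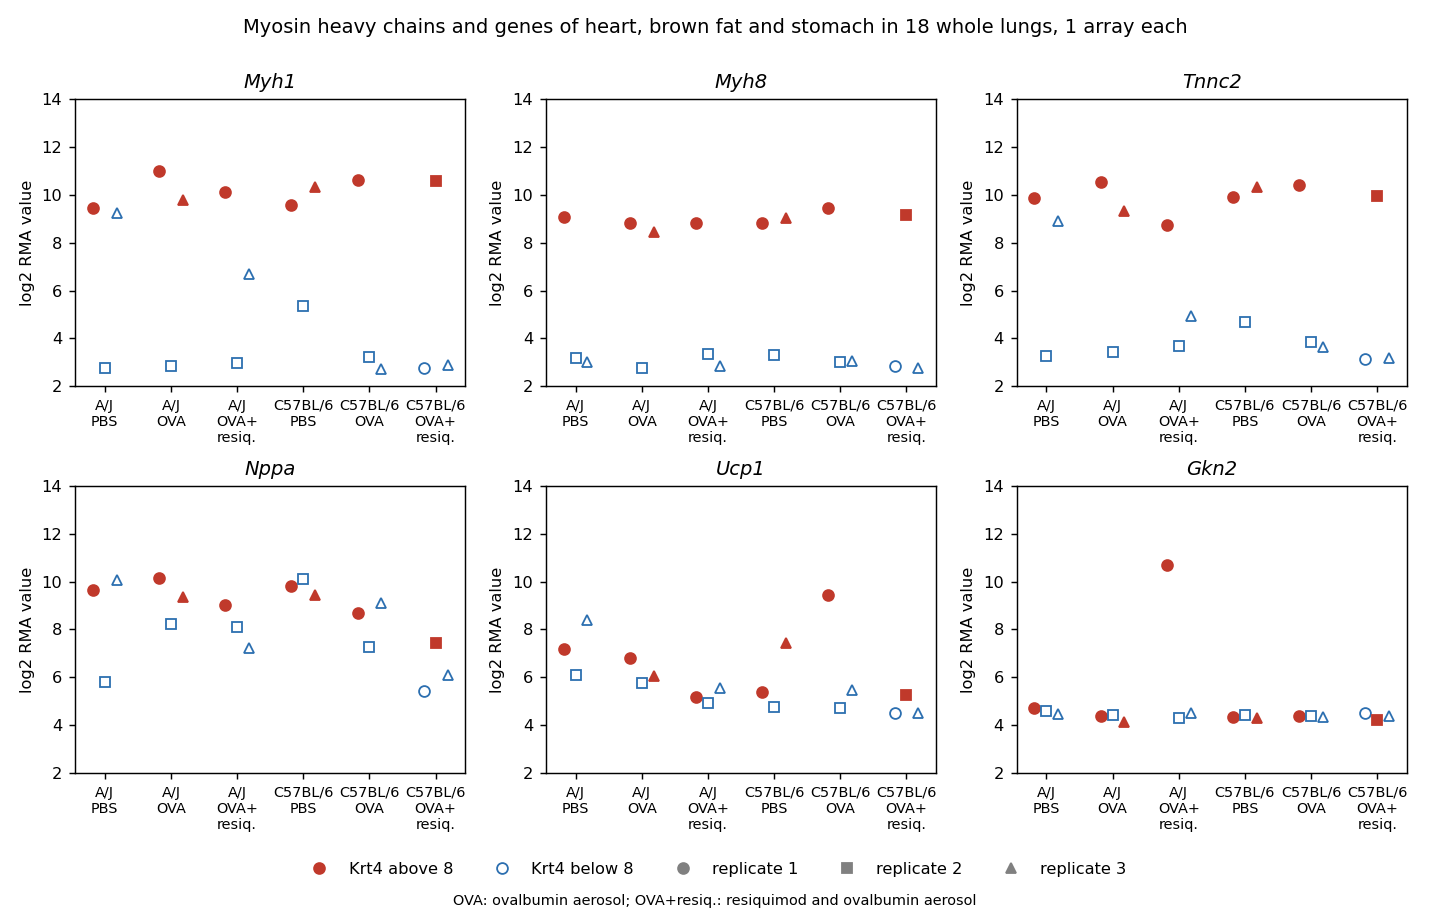
Log2 RMA values of Myh1, Myh8, Tnnc2, Nppa, Ucp1 and Gkn2 in each of the 18 arrays, drawn as in the plot of the markers. A/J PBS array 3, an open triangle, reads 9.22 for Myh1 and 2.99 for Myh8, and Gkn2 is high in A/J resiquimod array 1 only.

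Genes outside the lists added to both sides. Matched by symbol, 48 of the 149 genes belonged to the 5 squamous lists, 29 to the 2 skeletal muscle lists, 9 to other lists and 63 to none. Il1f6 (1.67 ± 0.11) and Il1f5 (1.43 ± 0.14) are older names of Il36a and Il36rn, members of a squamous list. They were missed by this match and count among the 63, so the squamous counts are too low. The 63 were led by Lce1c (5.23 ± 0.12), the metallothionein Mt4 (5.04 ± 0.14), Ada (adenosine deaminase, 4.77 ± 0.28), Lce1f (4.68 ± 0.16) and Asprv1, a protease that processes filaggrin (4.56 ± 0.19). Lce1d, Fam25c, Sptssb, Teddm3 and Lce1a2 followed with differences between 3.56 and 3.97. The lowest differences were those of Cyp26b1 (-0.77 ± 0.31), Ces1g (-0.58 ± 0.18), Cxcl3 (-0.46 ± 0.26) and Cyp1a1 (-0.44 ± 0.32), and in each of these the sets overlapped. Immunoglobulin kappa genes were 4 of the 63, each higher in 5 of 6 groups.

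The level of some squamous genes differed between the A/J and the C57BL/6 arrays above 8. In the 4 C57BL/6 arrays above 8, Krt4 lay between 11.91 and 12.32, and in the 4 A/J arrays between 10.51 and 11.30. Krt78, a keratin of differentiated layers, was 7.62 to 8.52 in the former and 5.54 to 5.93 in the latter, close to the 5.17 to 5.54 of the arrays below 8. Sprr1a, a small proline-rich envelope protein, was 7.17 to 8.30 against 4.71 to 5.28. Ada went the other way, with 9.18 to 10.20 in the C57BL/6 and 10.30 to 11.11 in the A/J arrays. Whether the strains differ was not tested, since the arrays were chosen by a value and probe sets can read alleles of the strains differently.

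Within the 8 arrays above 8, squamous genes varied together. Krt13 correlated with Lor (Pearson r = 0.874, exact permutation p = 0.00598, adjusted 0.0199 over the 10 relations computed; Spearman rho = 0.857, exact p = 0.0107, adjusted 0.0357) and with Krt5 (r = 0.877, exact p = 0.00531, adjusted 0.0199; rho = 0.929, exact p = 0.00223, adjusted 0.0154). Without the 2 arrays farthest from the median of Krt13, both of them C57BL/6, r was 0.655 and 0.661 over the 6 left and no longer passed. Leaving out any single array kept r at 0.814 or more for Lor and at 0.819 or more for Krt5. Krt13 with Acta1 gave r = 0.697 (exact p = 0.0679, adjusted 0.170; rho = 0.5, exact p = 0.216), and Acta1 with Ckm r = 0.406 (exact p = 0.340; rho = 0.619, exact p = 0.115). The permutations exchanged arrays across strains and groups, and Krt13 was lower in each A/J array above 8 than in each C57BL/6 array above 8. The relations of Krt13 thus cannot be told apart from a difference in level between the arrays of both strains. Whether any of these relations holds within a strain was not tested.

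Within the 10 arrays below 8 muscle genes varied together. Acta1 correlated with Ckm (r = 0.917, permutation p = 0.00015, adjusted 0.0015; rho = 0.855, permutation p = 0.00307, adjusted 0.0154), and r was 0.822 without A/J PBS 3 and C57BL/6 resiquimod 1, the 2 arrays farthest from the median. Krt13 gave r = 0.0099 with Lor, 0.128 with Krt5 and 0.0791 with Acta1, none of which passed (permutation p = 0.976, 0.716 and 0.821). Krt13 with Sftpc, the surfactant gene of alveolar type 2 cells, gave r = 0.351 above 8 (exact p = 0.395) and -0.465 below 8 (permutation p = 0.173), and neither passed.

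Genes of the lung itself differed by small amounts. All 19 alveolar genes were below 0, from -0.14 to -0.01 with a median of -0.08, and all 20 endothelial genes were below 0, from -0.21 to -0.01 with a median of -0.06. Only 2 of the 19 and 2 of the 20 were lower in each of the 6 groups, and the median over all genes was -0.01. RMA brings all arrays to 1 distribution of values, and the part of that step in this shift was not tested. Both sets overlapped for each of these genes. Of 18 airway genes 16 were below 0, with a median of -0.10, and Aldh3a1, an aldehyde dehydrogenase also abundant in cornea, was 2.06 ± 0.16 higher. The 33 genes of the allergen and resiquimod response had a median of -0.01 and 0 members at least 2-fold apart.

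Some genes that the arrays below 8 also showed at a high level were among the 149. Of 6773 genes whose mean in the arrays below 8 was over the 75th percentile of all values, 6.86, 12 were at least 2-fold higher in the arrays above 8, and 8 of the 12 were higher in all 6 groups. These were Ckm (2.93), Dmkn (dermokine, 2.44), Mb (1.79), Slpi (1.77), Perp (1.5), Ttn (titin, 1.42), Eno3 (muscle enolase, 1.29) and Hspb6 (1.01). Slpi, a protease inhibitor secreted by mucosal epithelia, lay between 10.91 and 11.81 (median 11.36) against 8.71 to 10.92 (median 9.49), and the sets overlapped narrowly. Perp lay between 8.34 and 9.19 (median 8.73) against 7.07 to 7.55 (median 7.29), and its sets did not overlap. Lum (lumican, a matrix proteoglycan) and Dcn (decorin) were 1.07 ± 0.15 and 0.54 ± 0.10 higher.

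The division also marked the main axis along which arrays of a group differed. The first principal component of the deviations from group means held 42.7% of the variance, with scores between 0.10 and 0.39 in the arrays above 8 and between -0.34 and -0.09 in those below. Adding the division to the 6 group means removed 41.6% of the sum of squares within groups. For Acta1 the residual standard deviation fell from 3.25 to 1.24, for Krt13 from 4.44 to 0.39 and for Lum from 0.71 to 0.36. A sign of RNA degradation, the excess of 3′ over 5′ signal for the beta-actin controls, was 0.34 to 0.50 (median 0.39) above 8 and 0.35 to 0.67 (median 0.44) below. For Gapdh it was -0.06 to 0.10 (median 0.05) above and 0.01 to 0.56 (median 0.07) below. C57BL/6 ovalbumin array 2 gave the highest value of both, and its Gapdh value of 0.56 stood apart from at most 0.10 in the other 17 arrays. The part of RNA quality in the differences was not tested.

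The study's labelled comparisons ask what ovalbumin changes and what resiquimod changes beside it, and the extra transcripts fall unevenly into their groups. They were tested with limma on all 18 arrays as 6 group means, with Benjamini-Hochberg adjustment over 45037 probe sets, and calls needed an adjusted p under 0.05. Nothing beyond the spread between these samples enters the p-values, and that spread may in part be technical. For ovalbumin against PBS in A/J, 797 genes (4.38%) were called, and 0 of the 149 genes were among them, although the median of the 149 was 0.48. For ovalbumin against PBS in C57BL/6, 290 genes (1.59%) were called and 0 of the 149, with a median of -0.77. At an unadjusted p under 0.05 the number was also 0 in either comparison. The 149 were chosen for differing between arrays of the same group, which widens their spread in this model, so nothing is read from these counts. The A/J ovalbumin group holds 2 arrays above 8 and its PBS group 1, and in C57BL/6 these numbers are 1 and 2.

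For resiquimod with ovalbumin against ovalbumin in A/J, 1777 genes (9.77%) were called and 1 of the 149, Lum, which fell by 1.72 ± 0.50 (limma, adjusted p = 0.0464). In C57BL/6, 1891 genes (10.4%) were called and 0 of the 149 by limma, 8 of them at an unadjusted p under 0.05. Krt13 differed by 2.52 ± 3.11 for ovalbumin in A/J and by -2.92 ± 3.11 in C57BL/6, which is within the spread between replicates (limma, adjusted p = 0.795 and 0.822).

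Some squamous list genes were called for a treatment. They were not among the 149, whose wide spread within groups leaves little room for a call, so nothing is read from this. Of 114 measured, 6 were called higher for ovalbumin in A/J, where 3.2% of all genes were called higher. They were Alox12e, a lipoxygenase (1.22 ± 0.18, limma, adjusted p = 0.000619), Il1rn, the antagonist of the interleukin 1 receptor (1.05 ± 0.18, adjusted p = 0.00254), Klf4 (0.68 ± 0.11, adjusted p = 0.00246), Mal, Anxa8 and Sox2. In C57BL/6 only Sox2 was called higher for ovalbumin (0.48 ± 0.07, limma, adjusted p = 0.0021), where 1.44% of all genes were called higher. For resiquimod in A/J, A2ml1, a protease inhibitor, rose by 1.34 ± 0.21 (limma, adjusted p = 0.000797) and Mal fell, where 4.38% of all genes were called higher and 5.39% lower. In C57BL/6 Sox2, Mal and Anxa8 fell and 0 rose (limma; 0 also at an unadjusted p under 0.05), where 5.8% of all genes were called higher and 4.6% lower. Of the 59 skeletal muscle genes, Tpm2 (beta-tropomyosin, also made by smooth muscle) was called in all 4 comparisons and rose by 0.62 and 0.55 for ovalbumin and fell by 0.90 and 0.88 for resiquimod in A/J and C57BL/6.

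With the division as a term in the model, the median change of the 149 genes was -0.19 for ovalbumin in A/J, -0.03 for ovalbumin in C57BL/6 and 0.04 for resiquimod in A/J, where it had been -0.77. Krt13 then differed by -0.04 ± 0.28 for ovalbumin in A/J and by -0.37 ± 0.28 in C57BL/6 (limma, adjusted p = 0.975 and 0.691). In these 3 comparisons the groups differ by 1 array above 8 of 3, so the term by its construction moves each estimate in proportion to the gene's difference between both sets. In the fourth, resiquimod in C57BL/6, no estimate moved, since both of its groups hold 1 array above 8 of 3. The median change of the 29 contractile genes for ovalbumin in A/J was 0.33 without the term, -0.41 with it and -0.78 in the arrays below 8 alone. The last value sets 1 A/J ovalbumin array against 2 A/J PBS arrays, of which 1 is A/J PBS 3, the array with high muscle transcripts. For resiquimod in A/J it was -1.03, -0.23 and -0.03.

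Calls of other genes changed too. With the term, 694 of the 797 genes called for ovalbumin in A/J were called again, 103 were not and 61 were added. For ovalbumin in C57BL/6, 270 of 290 were called again and 55 were added, for resiquimod in A/J 1642 of 1777 with 151 added, and for resiquimod in C57BL/6 1866 of 1891 with 208 added. Every gene called in both models kept its direction. Il13, the cytokine of type 2 immunity, rose by 0.43 ± 0.11 for ovalbumin in A/J (limma, adjusted p = 0.0420) and by 0.43 ± 0.11 with the term (adjusted p = 0.0583). The endothelial genes Sox18 and Aplnr, the alveolar Abca3 and the fibroblast genes Pdgfra and Mfap4 crossed the threshold there in the same way, with adjusted p between 0.0341 and 0.0493 before and between 0.0503 and 0.0737 with the term (limma). Calls gained there went further: Dcn was at an adjusted p of 0.458 without and 0.0401 with the term, and Gjb6, the connexin 30 gene, at 0.317 and 0.0219 (limma).

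For resiquimod in A/J, Lum was called in both models and fell by 1.36 ± 0.25 with the term (limma, adjusted p = 0.00277). Dcn was called with the term only, where it rose by 0.64 ± 0.16 (adjusted p = 0.0226), against a change of 0.46 ± 0.27 (adjusted p = 0.386) without it. Its other probe set differed by only -0.02 between both sets of arrays, so the effect of the term on Dcn rests on 1 probe set. For resiquimod in C57BL/6, Srl (sarcalumenin), Smpx, Pgam2 and Cox7a1, genes of striated muscle, and Actn2, Myl3 and Mybpc3, which heart expresses, were called with the term only. Des of the smooth muscle list fell by 0.51 there, with an adjusted p of 0.141 without and 0.012 with the term (limma). Srl fell by 1.62 ± 0.31 (adjusted p = 0.00281), after an SE of 0.53 and an adjusted p of 0.0755 without the term. In that comparison 8 of 18 cardiac genes were called lower without the term and 11 with it, against 4.6% of all genes called lower, and Tnnc1, Myl7 and Actc1 fell by 1.77 ± 0.22, 1.46 ± 0.21 and 1.29 ± 0.17 in the model without it.

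Genes of the allergen response moved little with the term. Of its 33 genes, 24 were called higher and 1 lower for ovalbumin in A/J (3.2% and 1.18% of all genes), and 23 and 0 with the term. Chil4, a chitinase-like protein of allergic airways, rose by 5.86 ± 0.40 (limma, adjusted p = 2.154e-07) and by 5.92 with the term, and Clca1, a goblet cell gene, by 5.85 ± 0.48 and 5.94. Smooth muscle genes also moved apart from the skeletal ones: Acta2 and Actg2 rose by 0.68 ± 0.09 and 1.27 ± 0.13 for ovalbumin in A/J and fell by 0.71 ± 0.09 and 1.28 ± 0.13 for resiquimod in A/J. With the term the rises were 0.68 and 1.21. Resiquimod comparisons share the ovalbumin arrays with the ovalbumin comparisons, so a fall after a rise is in part the same values read again.

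**Figure D4:**
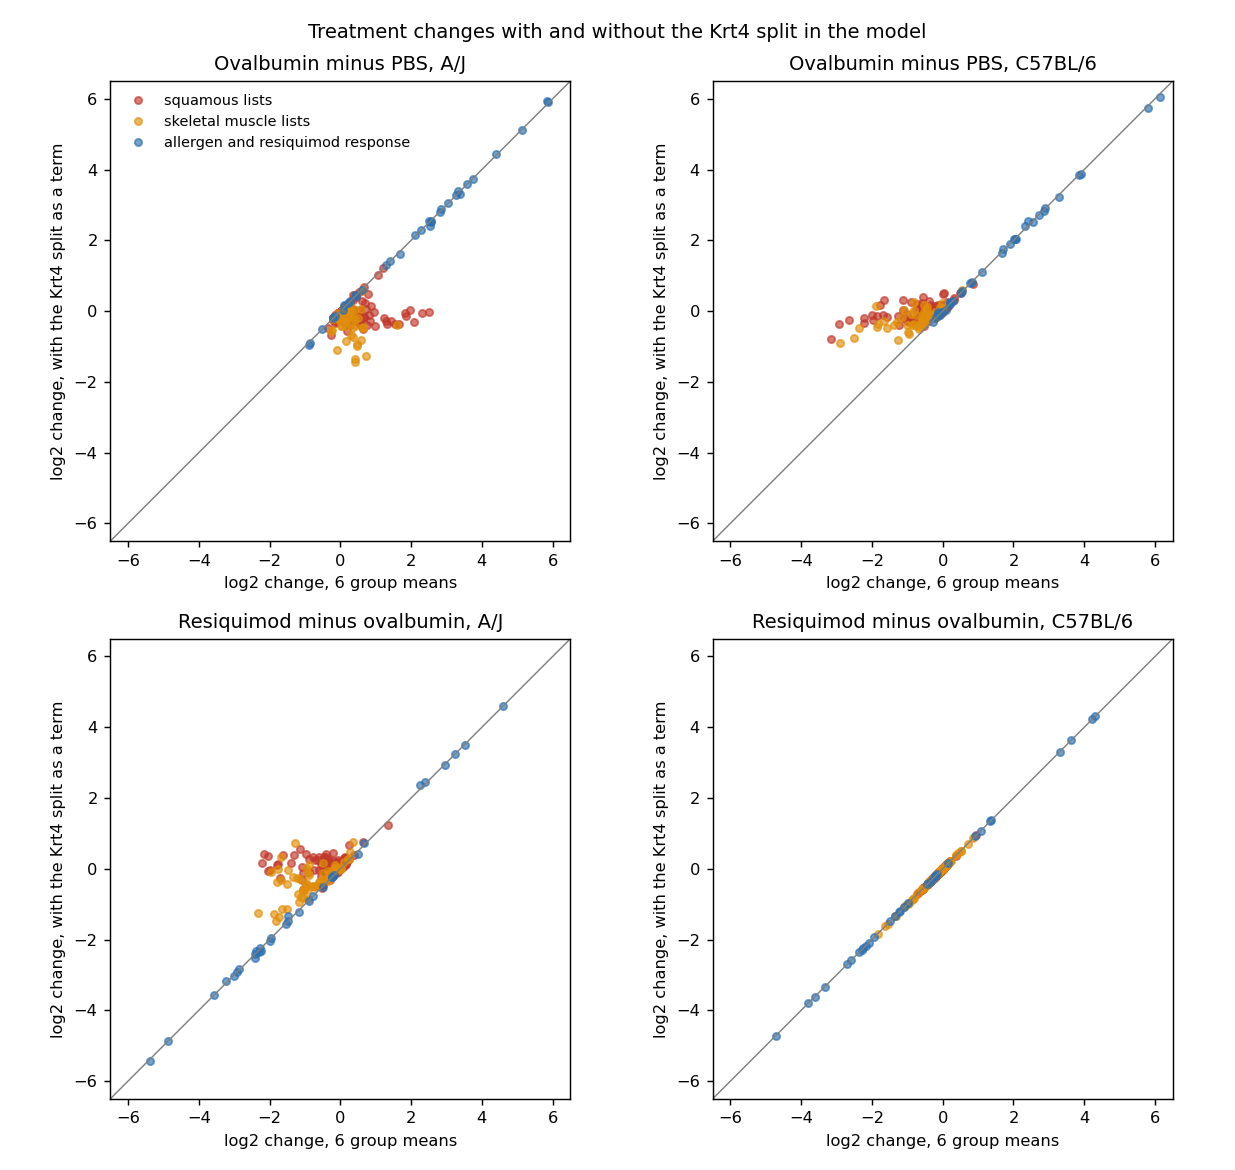
Log2 change of each gene of the 5 squamous lists (red), the 2 skeletal muscle lists (orange) and the response list (blue) in the 4 comparisons, from 6 group means (x axis) and with the division by Krt4 as a term (y axis), with the line of equal values. Response genes lie close to the line. Squamous genes spread along the x axis and lie nearer to 0 on the y axis, except for resiquimod in C57BL/6, where no value moves. Muscle genes leave the line too, but for ovalbumin in A/J they shift to below 0, with a contractile median of 0.33 without and -0.41 with the term.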

How the data were processed

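Whole lungs were homogenized in TRIzol, and biotin-labelled cRNA was hybridized to Affymetrix Mouse Genome 430 2.0 arrays, 1 array a sample, per the labels' protocols. The authors deposited log2 values made with RMA, in the affy package, per the submitters' processing notes. Their version is not given in the sources used here, and no scan date or batch was given either. These values, from 2.00 to 14.03, were used as deposited. Of 45101 probe sets, 64 controls were left out and 45037 tested. Gene names came from the platform annotation: 34945 probe sets had 1 gene, 932 several and 9160 none, and 34741 were matched by Entrez ID to RefSeq. A gene is its probe set with the highest mean (18193 genes).

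limma 3.58.1 (lmFit and eBayes, under R 4.3.3) was applied to all 18 arrays as 6 group means, with the division by Krt4 as a further term for the description and as an alternative. The models were tested on simulated data. The number of arrays limits the precision. Of 424 members of 21 gene lists, 390 were found by symbol and are the members called measured. Members held under older names, such as Il36a and Il36rn (Il1f6 and Il1f5), are not among the 390. The members and lists were chosen with earlier results of these data known.

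Named were the 6 markers, up to 5 members a list with the largest difference, the 10 genes outside the lists at either end, genes also expressed below 8, genes called for a treatment, up to 8 list genes a comparison whose call changed with the term, and some smooth muscle and response genes. Actc1, Alox12e, Anxa8, Dsp, Flg, Il13, Il1f5, Il1f6, Ivl, Jup, Klf4, Krt1, Krt10, Krt16, Krt17, Krt24, Krt6a, Krt6b, Krt76, Krt78, Krt84, Mybpc3, Myh2, Myl7, Myod1, Pgam2, Serpinb11, Serpinb2, Serpinb5, Sftpc, Smpx, Sox2, Sprr1a, Sprr2d, Sprr2h, Sprr2i, Sprr3, Tgm1, Tgm3, Tnnc1, Tnni1, Tnnt1 and Tpm2 were chosen after their values were seen.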

Additional observations from a re-analysis of the deposited data

Results flagged for a closer look

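Within the arrays above 8 and within those below 8, single arrays stood far from the others in 24 of 306 checks. Chance gives about 1 in 20, and these checks do not allow for the 6 groups.

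A/J PBS array 3 was high among the arrays below 8 for the muscle genes Acta1 (10.6), Tnnc2 (8.90), Atp2a1 (8.34), Mylpf (8.0), Ryr1 (6.18) and Myl2 (5.45), for Ucp1 (8.41) and, at a low level, for Krt14 (3.22). A/J resiquimod array 1 was high among the arrays above 8 for the stomach genes Tff1 (11.6), Gkn2 (10.7) and Gkn1 (8.65), and A/J ovalbumin array 2 was high for Tff1 among those below (8.66). The latter is the level of its group, whose 3 arrays had a mean of 8.79 ± 0.16 (SD, n = 3). A/J resiquimod array 3 was high for the acute phase genes Saa1 (10.1) and Itih3 (7.59) and for Tg (4.64), and low for Defb4 (2.69).

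Among the arrays above 8, C57BL/6 PBS array 3 was high for Krt14 (5.84), C57BL/6 ovalbumin array 1 for Pck1 (8.36) and A/J PBS array 1 for Sox18 (10.01), and C57BL/6 resiquimod array 2 was low for Slc34a2 (11.6). Among those below, C57BL/6 PBS array 2 was high for Cyp1a1 (9.08) and Lce3a (4.35), C57BL/6 resiquimod array 1 was low for Fam25c (4.23) and C57BL/6 resiquimod array 3 low for Ccl25 (3.51).

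The change of A2ml1 with resiquimod differed between the strains, with 1.34 in A/J and -0.72 in C57BL/6, a difference of 2.06 ± 0.30 (limma interaction term, adjusted p = 0.00498). It was 5.09 to 7.43 in A/J and 7.10 to 8.48 in C57BL/6 arrays.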

How the results depend on the processing

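Krt4 thresholds of 7 and 9 and a division made on Krt13 select the same arrays, so the count of 149 genes at least 2-fold higher could not change with them. The count was 138 with the median over a gene's probe sets, 148 after centring and 156 without the group covariate. Leaving out each array in turn gave 138 to 164, and 0 to 1 lower. Probe sets called in the 4 comparisons, in the order ovalbumin in A/J and C57BL/6 and resiquimod in A/J and C57BL/6, were 1419, 478, 3206 and 3520. Without the arrays above 8 they were 120, 141, 574 and 1398, where A/J ovalbumin and C57BL/6 PBS hold 1 array each, so that in the first 3 comparisons 1 arm is a lone array assumed to vary like the other groups, and list members called fell to 24 for ovalbumin and 42 for resiquimod in A/J. With only the arrays of both groups compared they were 744, 273 and 1092 in the first 3. The cause was not tested. Leaving out each array in turn gave 680 to 1495, 260 to 527, 2212 to 3174 and 2259 to 3649. The first count fell below a 1.5-fold margin without A/J PBS 1 (854), 2 (802) or 3 (806) or A/J ovalbumin 1 (860) or 3 (680), the second without C57BL/6 PBS 1 (298) or C57BL/6 ovalbumin 2 (260, the array with the high Gapdh 3′ excess) or 3 (307), and the last without C57BL/6 resiquimod 3 (2259). The main model did not pair samples by replicate number. Deviations from group means correlated between -0.63 and 0.61 (median 0.18) for the same number. For different numbers they correlated between -0.60 and 0.68 (median -0.13). Array 1 was above 8 in 5 of 6 groups, so number and division overlap, and a pairing by number cannot be told apart from the division. With a replicate block the counts were 1285, 444, 3176 and 3475. Among the arrays above 8, without the 2 arrays farthest from the median, Krt13 correlated with Lor at 0.655 and with Krt5 at 0.661, and Acta1 with Ckm at -0.0754. Leaving out each array in turn gave, above 8, r of 0.814 to 0.955 (Krt13 with Lor), 0.819 to 0.931 (Krt5), 0.547 to 0.905 (Acta1), 0.115 to 0.547 (Sftpc) and 0.0890 to 0.569 (Acta1 with Ckm). Below 8 it gave -0.230 to 0.312 (Krt13 with Lor), -0.0148 to 0.317 (Krt5), -0.0220 to 0.420 (Acta1), -0.571 to -0.196 (Sftpc) and 0.855 to 0.951 (Acta1 with Ckm).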
